A study of Saccharomyces cerevisiae x Saccharomyces kudriavzevii and Saccharomyces cerevisiae with 12 samples.

Results

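The genes by which yeast uses sucrose and maltose were followed in hybrids of S. cerevisiae and S. kudriavzevii during wine fermentation. These were 10 genes of the 6178 ORFs on the array, taken by systematic name: SUC2, MAL11, MAL12, MAL13, MAL31, MAL32, MAL33, IMA1, MPH2 and MPH3. All 10 were in the table, and only MPH2 lacked a value on 1 of the 12 arrays. The arrays carry PCR-amplified ORFs of the laboratory strain S288c. Each array compared cDNA of a hybrid, Lalvin W27 or VIN7, with cDNA of the wine strain S. cerevisiae Lalvin T73. Cells came from Tempranillo must fermented at 12 or 28 °C and were taken at the beginning of stationary phase, and the hybrid and T73 of an array came from the same temperature. The groups were Lalvin W27 at 12 °C, Lalvin W27 at 28 °C, VIN7 at 12 °C and VIN7 at 28 °C, and every group had 3 arrays, called replicates A, B and C. The hybrids are triploids with more of the S. cerevisiae than of the S. kudriavzevii genome. Chromosomes that join parts of both species are known mainly from W27, where the study names IV, V, IX, XIV and XV. In S288c, SUC2 lies on IX and MPH2 on IV, and their alleles in W27 are not given. On chromosome VII of VIN7, which carries MAL11, MAL12, MAL13 and IMA1 in S288c, some stretches hold only S. cerevisiae alleles.

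Sucrose is split outside the cell into glucose and fructose by invertase, the product of SUC2. Maltose is first carried into the cell by a proton symporter and then split into glucose by a maltase. A MAL locus holds a transporter gene, a maltase gene and a gene for the zinc-finger activator that turns on the other two when maltose is present. SUC2 and the MAL genes are known to be repressed while glucose is plentiful. MAL loci lie near the ends of chromosomes, where the number of copies can differ between strains, and S288c is itself known as a strain that does not ferment maltose. The array reads the sum of all alleles and copies that bind to an ORF, so copy number and expression per copy cannot be told apart here, nor can S. cerevisiae and S. kudriavzevii transcripts.

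The measure is the log2 ratio of hybrid over T73, where 1 is a 2-fold higher and -1 a 2-fold lower signal in the hybrid. The deposited ratio likely runs the other way, as T73 was labelled with Cy5 and the hybrid with Cy3 on every array, and all signs were turned. The dye assignment was the same throughout, and an effect of the dyes cannot be told apart from one of the strains. The median of an array lay between -0.14 and 0.30 and its SD between 0.60 and 1.59, so arrays differed in spread. Over all ORFs, replicate C of the VIN7 arrays at 28 °C ran opposite to 4 arrays at 12 °C (Pearson r from -0.70 to -0.38), and no other of the 66 pairs of arrays lay below -0.3. Its direction is not settled, so results that rest on it are also given with its sign turned, written as "replicate C turned". The replicates are labelled biological, but by the methods there were fewer independent fermentations than arrays in a group, so the spread behind the p-values may be partly technical.

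The maltase genes MAL12 and MAL32 were the members most often higher in the hybrids than in T73. MAL32 (YBR299W, right arm of chromosome II) had a positive log2 ratio on 12 of 12 arrays and was at least 2-fold higher on 8 of them. MAL12 (YGR292W, right arm of chromosome VII) was positive on 11 of 12 arrays and at least 2-fold higher on 4. Of the ORFs with a value on every array, 0.775% were positive on all 12 and 3.48% on at least 11. With replicate C of VIN7 at 28 °C turned, MAL32 was positive on 11 arrays and MAL12 on 12, against 1.17% of ORFs on all 12 and 5.78% on at least 11. T73 is part of every ratio, so any deviation of T73 common to the arrays enters all of these values.

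The log2 ratio of MAL32 in Lalvin W27 at 12 °C was 0.45, 1.79 and 0.42 on replicates A, B and C (mean 0.89 ± 0.78, SD, n = 3). In VIN7 at 12 °C it was 1.86, 1.85 and 1.36 (mean 1.69 ± 0.28, SD, n = 3), the group with the closest replicates. The values in W27 at 28 °C were 1.83, 1.17 and 0.27 (mean 1.09 ± 0.78, SD, n = 3). For VIN7 at 28 °C they were 1.09, 2.83 and 0.76 (mean 1.56 ± 1.12, SD, n = 3), and the mean was 1.06 with replicate C turned. All groups overlapped with each other. Set against the other ORFs of the same array, MAL32 lay between the percentiles 67.6 and 97.6, with a median of 88.6. The lowest percentile belonged to replicate C of VIN7 at 28 °C. With this array turned it was 32.4.

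MAL12 was higher in Lalvin W27 at 12 °C on all arrays, with 0.71, 0.46 and 0.85 (mean 0.68 ± 0.20, SD, n = 3). VIN7 at 12 °C gave 0.52, 1.59 and 1.84 (mean 1.32 ± 0.70, SD, n = 3). At 28 °C the highest value came from replicate B in both hybrids, with 0.95, 2.67 and 0.64 in W27 (mean 1.42 ± 1.09, SD, n = 3). The arrays of VIN7 at 28 °C gave 0.36, 2.67 and -0.08 (mean 0.98 ± 1.48, SD, n = 3), and the mean was 1.04 with replicate C turned. The value of replicate C, close to 0, was the one negative value of MAL12.

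**Figure D1:**
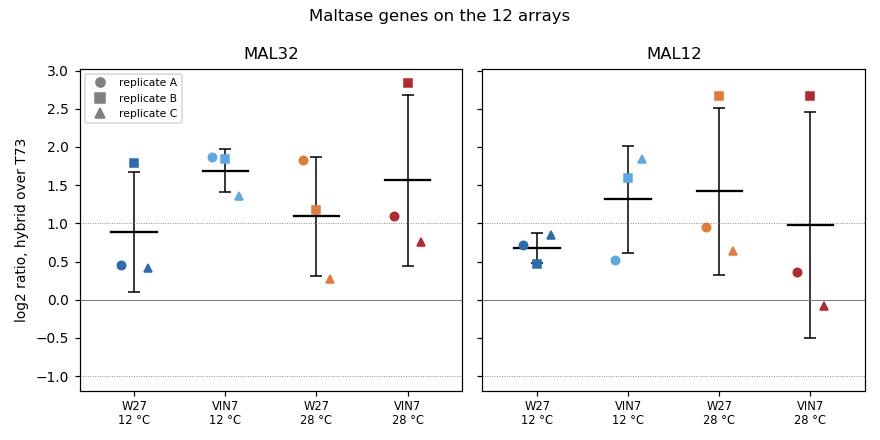
Log2 ratio of hybrid over T73 (vertical axis) for the maltase genes MAL32 and MAL12 in the 4 groups. Points are single arrays with the replicate given by shape, horizontal bars are means and whiskers are SD (n = 3), and the dotted lines mark a 2-fold difference. All 12 points of MAL32 and 11 of the 12 of MAL12 lie above 0, or 11 and 12 with replicate C of VIN7 at 28 °C turned.

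Tested group by group with limma over all ORFs, neither maltase gene passed the adjusted threshold of 0.05 in any group. The closest was MAL32 in VIN7 at 12 °C, 3.23-fold higher (limma, unadjusted p = 0.00291, adjusted p = 0.118). The mean of the 4 groups, an additional contrast chosen after the values were seen, was 1.31 for MAL32 (standard error 0.23, adjusted p = 0.0146, limma), which is 2.48-fold higher in the hybrids. For MAL12 it was 1.10 (standard error 0.27, adjusted p = 0.0464, limma), or 2.14-fold higher. With replicate C of VIN7 at 28 °C turned, the means were 1.18 and 1.11, both with an adjusted p of 0.0152 (limma), in a fit where 1052 of 6149 ORFs passed instead of 196. Those 1052 ORFs were not split by direction. In the fit without that turn, 1.97% of 6149 ORFs passed as higher and 1.22% as lower, and MAL12 and MAL32 were the only members that passed. At an unadjusted p under 0.05 the shares in the fit without the turn were 15.9% and 9.64%, with no further member. MAL32 passed with any array left out (adjusted p between 0.00411 and 0.0494, limma). MAL12 no longer passed without any 1 of 9 arrays, and the adjusted p reached 0.123 without replicate C of W27 at 12 °C (limma). It passed without replicate C of VIN7 at 12 °C, of W27 at 28 °C or of VIN7 at 28 °C.

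SUC2 (YIL162W, left arm of chromosome IX), the gene of invertase, was the member that differed most between the hybrids at 12 °C. All 3 arrays of Lalvin W27 at 12 °C were below 0, with -0.79, -0.30 and -1.11 (mean -0.73 ± 0.41, SD, n = 3). In VIN7 at 12 °C the log2 ratio was -0.06, 1.23 and 2.50 (mean 1.22 ± 1.28, SD, n = 3). The groups did not overlap, and each array of VIN7 was above each array of W27. The difference of VIN7 minus W27 was 1.95 with a standard error of 0.63, or 3.88-fold, and 50 of the 6164 ORFs tested had a higher one. With limma its unadjusted p was 0.00801 and its adjusted p = 1.00 over all ORFs, so it did not pass. Replicate C of VIN7 contributed much of it, since the difference was 1.32 without that array.

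At 28 °C, SUC2 was 0.45, 0.67 and -0.11 in W27 (mean 0.34 ± 0.40, SD, n = 3). In VIN7 the values were 0.35, 0.84 and 1.17, all above 0 (mean 0.79 ± 0.41, SD, n = 3), but 0.01 with replicate C turned. The hybrids overlapped at this temperature, with a difference of 0.45 (standard error 0.63, adjusted p = 0.802, limma) that became -0.33 with replicate C turned.

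The transporter genes did not follow one pattern. MAL31 (YBR298C, chromosome II), the maltose transporter of the MAL3 locus, resembled SUC2. Its values in Lalvin W27 at 12 °C were all below 0, with -0.53, -0.39 and -1.11 (mean -0.68 ± 0.38, SD, n = 3). VIN7 at 12 °C gave 0.62, 0.21 and 2.78, all higher than in T73 (mean 1.20 ± 1.38, SD, n = 3). The arrays of MAL31 thus lay below T73 in one hybrid and above it in the other. Neither mean passed (adjusted p = 0.497 in W27 and 0.181 in VIN7, limma). The difference between the hybrids was 1.88 with a standard error of 0.67 (unadjusted p = 0.0147, adjusted p = 1.00, limma), and it was 1.09 without replicate C of VIN7.

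The order of the hybrids was the same for MAL31 at 28 °C. Lalvin W27 gave -0.48, 0.08 and -0.10 (mean -0.17 ± 0.29, SD, n = 3), close to T73. VIN7 gave 0.56, 2.04 and 1.56 (mean 1.39 ± 0.75, SD, n = 3), again without overlap. The separation rests on the sign of replicate C, since with it turned the arrays of VIN7 lay on both sides of those of W27. The difference was 1.55 with a standard error of 0.67 (unadjusted p = 0.0371, adjusted p = 0.547, limma). With replicate C of VIN7 turned, the mean of VIN7 was 0.35 and the difference 0.51.

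MAL11 (YGR289C, chromosome VII), which in S288c is the AGT1 transporter for maltose and other alpha-glucosides, had in W27 at 28 °C the smallest SD of any member in any group. The arrays there gave 0.86, 0.98 and 1.00 (mean 0.95 ± 0.08, SD, n = 3), or 1.93-fold higher than in T73 (unadjusted p = 0.0388, adjusted p = 0.465, limma). In VIN7 at 28 °C every value was below 0, with -0.94, -0.03 and -0.27 (mean -0.41 ± 0.47, SD, n = 3). With replicate C turned its value was 0.27 and the mean -0.23. The hybrids did not overlap in either case, and VIN7 minus W27 was -1.36 with a standard error of 0.59 (unadjusted p = 0.0363, adjusted p = 0.547, limma), or -1.18 with replicate C turned. At 12 °C the arrays of each hybrid lay on both sides of T73. They were -0.84, 0.76 and -0.06 in W27 (mean -0.049 ± 0.80, SD, n = 3), and 0.04, -1.36 and 0.15 in VIN7 (mean -0.39 ± 0.84, SD, n = 3).

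MPH2 (YDL247W, left arm of chromosome IV) and MPH3 (YJR160C, right arm of chromosome X) encode further alpha-glucoside transporters of very similar sequence. MPH2 ranged from -0.51 (replicate B) to 2.17 (replicate C) in VIN7 at 12 °C, with 1.08 on replicate A (mean 0.91 ± 1.35, SD, n = 3). In the other groups its mean lay between -0.30 and 0.23, with 2 values only in W27 at 28 °C. For VIN7 at 28 °C it was 0.20 with replicate C turned. MPH3 was highest on the same array, with 1.60 on replicate C of VIN7 at 12 °C against -0.08 and -0.33 on the others (mean 0.40 ± 1.05, SD, n = 3). At 28 °C, MPH3 was -0.34, -1.04 and -0.22 in W27 (mean -0.53 ± 0.44, SD, n = 3), and 0.11, -0.12 and 0.56 in VIN7 (mean 0.18 ± 0.35, SD, n = 3). These groups did not overlap, but the difference of 0.71 had a standard error of 0.58 (adjusted p = 0.657, limma), and with replicate C of VIN7 turned the groups overlapped and the difference was 0.34.

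IMA1 (YGR287C, chromosome VII), the gene of an isomaltase that splits isomaltose and lies beside the MAL1 locus, had a higher mean at 12 °C than at 28 °C in both hybrids. In VIN7 at 12 °C it was 1.00, 0.56 and 1.31 (mean 0.96 ± 0.38, SD, n = 3), while Lalvin W27 at 12 °C had -0.20, 0.86 and 1.53 (mean 0.73 ± 0.87, SD, n = 3). At 28 °C all values were close to T73, with 0.003, -0.34 and -0.44 in VIN7 (mean -0.26 ± 0.23, SD, n = 3), and -0.18, -0.006 and -0.15 in W27 (mean -0.11 ± 0.09, SD, n = 3). In VIN7 the temperatures did not overlap, and 28 minus 12 °C was -1.22 with a standard error of 0.53 (unadjusted p = 0.0389, adjusted p = 0.237, limma). With replicate C at 28 °C turned the mean at 28 °C was 0.036 and the difference -0.92, still without overlap (adjusted p = 1.00, limma). In W27 the difference was -0.84 (standard error 0.53, adjusted p = 0.752, limma) and the temperatures overlapped. Each ratio is taken against T73 at its own temperature, so a difference between temperatures can come from T73 as well as from the hybrid.

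The activator genes MAL33 (YBR297W, chromosome II) and MAL13 (YGR288W, chromosome VII) had the largest SD between replicates on average over the groups. MAL33 was 0.05, -0.48 and -1.11 in Lalvin W27 at 12 °C (mean -0.52 ± 0.58, SD, n = 3) and 0.71, 0.51 and 0.08 in W27 at 28 °C (mean 0.43 ± 0.33, SD, n = 3). The temperatures did not overlap in W27, with a difference of 0.95 and a standard error of 0.81 (adjusted p = 0.813, limma). In VIN7 the highest value at each temperature came from replicate C, with 0.26, -0.82 and 2.07 at 12 °C (mean 0.50 ± 1.46, SD, n = 3), and 0.52, 0.50 and 3.10 at 28 °C (mean 1.37 ± 1.497, SD, n = 3). The mean at 28 °C was -0.70 with replicate C turned, so the direction of MAL33 in VIN7 at 28 °C rests on that array.

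MAL13 lay within 0.6 of T73 on 8 of 12 arrays. The other 4 were replicate B in each group, with 0.74 in W27 and 1.86 in VIN7 at 12 °C, and 2.00 in W27 and 1.17 in VIN7 at 28 °C. The group means were between 0.019 and 0.62, with a standard error of 0.55 in limma (adjusted p between 0.709 and 0.990), and that of VIN7 at 28 °C was 0.29 with replicate C turned. Without replicate B the mean was negative in every group, between -0.34 and -0.07.

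**Figure D2:**
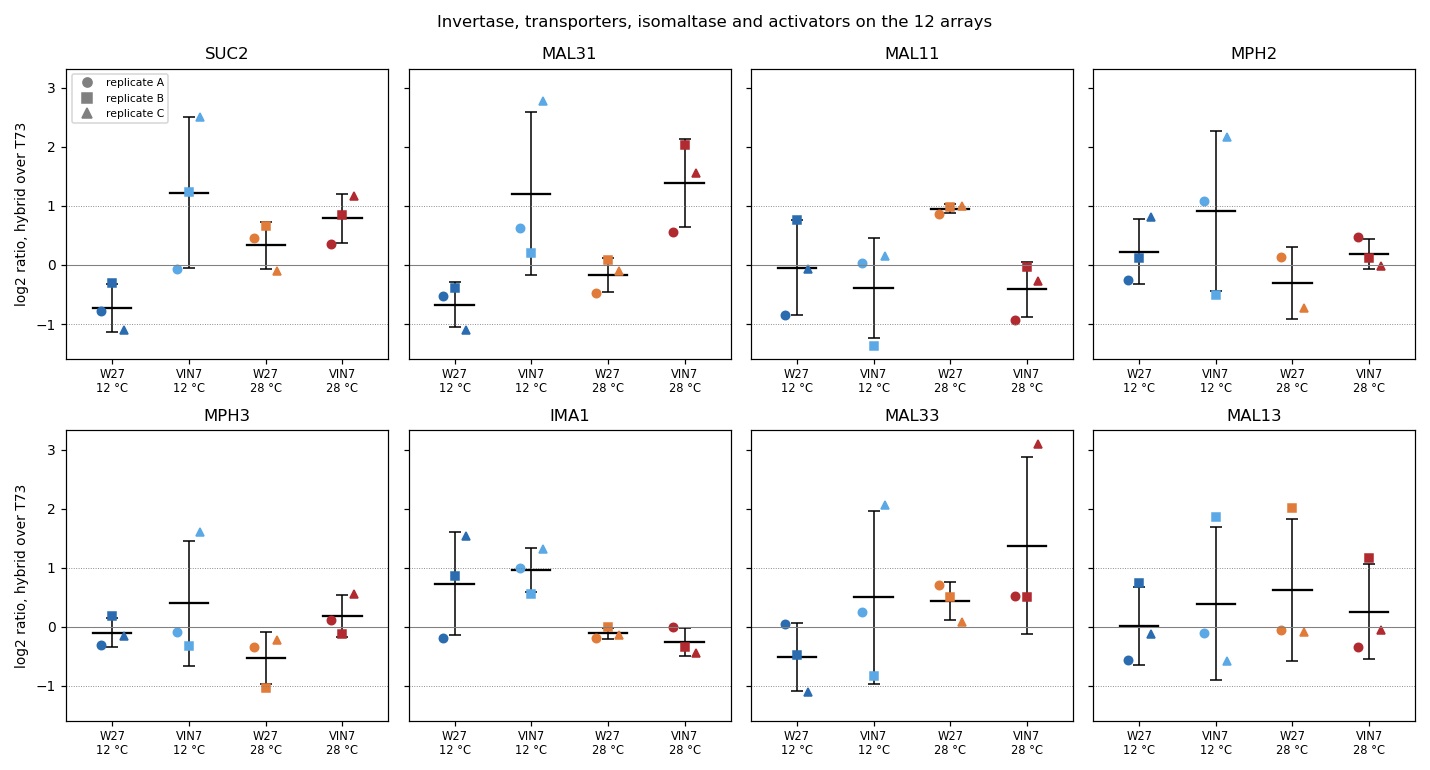
Log2 ratio of hybrid over T73 (vertical axis) for the other 8 genes in the 4 groups, drawn as for the maltase genes with points for arrays, bars for means and whiskers for SD (n = 3, or 2 for MPH2 in W27 at 28 °C). SUC2 and MAL31 are below 0 on every array of W27 at 12 °C, MAL11 is near 1 on every array of W27 at 28 °C, and the highest point of MAL13 is replicate B in each group.

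By the rule of the study's methods, a median of at least 2-fold with a value on at least 2 arrays, no member was counted as lower in any group. Over all ORFs the rule gave other numbers here than the study lists, so these counts and shares are not the study's own. In VIN7 at 12 °C, 5 of the 10 members were at least 2-fold higher (SUC2, MAL12, MAL32, IMA1 and MPH2), against 13.9% of all ORFs. The median log2 ratio of the members was 0.81, beside 0.003 for all ORFs. The count was 2 (MAL12 and MAL32) without replicate C and 7 without replicate B, and it was 1 (MAL32) when each array was scaled to the same spread. On replicate C of VIN7 at 12 °C the members had a median of 1.72, against -0.29 to 0.67 on the other arrays. All members but MAL11 and MAL13 lay between the percentiles 97.2 and 99.8 of the ORFs of that array, so much of the rise rests on it. In VIN7 at 28 °C, MAL31 and MAL32 were counted (2 of 10, against 11.3%), with 5 members without replicate A, 3 without replicate C, MAL31 and MAL33 without replicate B and MAL32 alone with replicate C turned (against 7.12% of ORFs higher and 5.92% lower). In Lalvin W27, MAL32 was counted at 28 °C (1 of 10, against 7.76%), with MAL12 in addition without replicate C, MAL12 in its place without replicate A, and none after recentring. No member was counted at 12 °C (0 of 10, against 10.6%), whereas 2 were without replicate A and 1 without replicate C. Lower ORFs made up 11.2% of all in W27 at 12 °C, 6.08% at 28 °C, 11.9% in VIN7 at 12 °C and 5.48% at 28 °C. Shares of all ORFs were not taken with an array left out, after scaling or after recentring.

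With limma and Benjamini-Hochberg adjustment over all ORFs, none of the 10 members passed in any group. At an unadjusted p under 0.05 there were 5 members in VIN7 at 12 °C (SUC2, MAL12, MAL31, MAL32 and IMA1, all higher), where 11.9% of ORFs were higher at that p. VIN7 at 28 °C had 3 (MAL31, MAL32 and MAL33, against 10.1%), W27 at 28 °C had 3 (MAL11, MAL12 and MAL32, against 6.14%) and W27 at 12 °C had 0 (against 7.55%). With replicate C turned, VIN7 at 28 °C had none (against 4.18% of ORFs higher and 4.57% lower), and through the shared estimate of the spread MAL31 was lost in VIN7 at 12 °C and MAL32 in W27 at 28 °C. No member was lower at that p, where lower ORFs made up 7.19% for W27 at 12 °C, 3.89% for W27 at 28 °C, 9.15% for VIN7 at 12 °C and 3.78% for VIN7 at 28 °C. After adjustment, 0.0324% of ORFs passed as higher in W27 and 0.0162% in VIN7 at 28 °C, 0.146% as higher and 0.405% as lower in VIN7 at 12 °C, and 0% in W27 at 12 °C. At 28 °C the group means of all ORFs had a median of 0.15 for W27 and 0.17 for VIN7, a shift that the values of the members include.

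**Figure D3:**
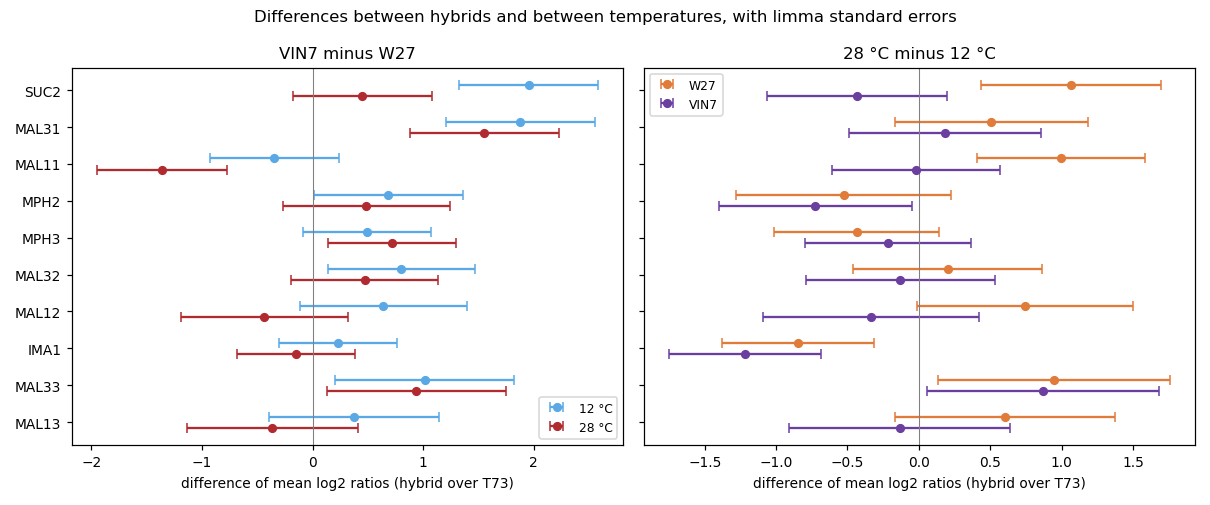
Differences of the mean log2 ratio for each member (rows), with limma standard errors, as VIN7 minus W27 at each temperature (left) and as 28 minus 12 °C in each hybrid (right). SUC2 and MAL31 are highest in VIN7 relative to W27 at 12 °C, MAL11 is lowest at 28 °C, and IMA1 is lower at 28 °C than at 12 °C in both hybrids.

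Between the hybrids, none of the members passed with limma at 12 °C or at 28 °C, nor did any other ORF. At an unadjusted p under 0.05 there were 2 members at 12 °C (SUC2 and MAL31, higher in VIN7, against 1.51% of ORFs higher and 0.714% lower). At 28 °C, MAL31 was higher in VIN7 at that p (against 5.97%) and MAL11 lower (against 3.02%), but neither with replicate C turned (unadjusted p of 0.556 and 0.0741, limma). The arrays of VIN7 lay entirely above those of W27 for 2 of 10 members at 12 °C, against 3.61% of ORFs, and for 2 of 9 at 28 °C (MAL31 and MPH3), against 7.36%. They lay entirely below for 0 at 12 °C, against 2.31%, and for MAL11 at 28 °C (1 of 9, against 6.39%). With replicate C turned, none lay entirely above at 28 °C (0 of 9, against 1.98%) and MAL11 still lay below (against 3.23%). Between temperatures, none of the members passed in either hybrid, nor did any other ORF. At an unadjusted p under 0.05 there was no member in W27 (against 3.73% of ORFs higher and 1.95% lower at 28 °C) and IMA1 alone in VIN7, lower at 28 °C (against 8.62% lower and 11.1% higher). With replicate C turned there was none in VIN7, where 245 of 6158 ORFs had such a p in either direction. IMA1 then had an unadjusted p of 0.117 (limma). In W27, 3 of 9 members (SUC2, MAL11 and MAL33) were higher on every array at 28 °C than on any at 12 °C, against 9.94% of ORFs, and none was lower, against 4.91%. In VIN7, IMA1 was lower on every array at 28 °C (1 of 10, against 8.57%), and no member was higher, against 12.1%. Both counts were the same with replicate C turned, against 2.12% and 4.58%. For SUC2 in W27, 28 minus 12 °C was 1.07 (standard error 0.63), and for MAL11 it was 1.00 (standard error 0.59), with an adjusted p of 0.752 for both (limma).

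Some members are near copies of each other, and probes of near copies may bind the same cDNA, so their values are not independent and the share of each copy is uncertain. MAL12 and MAL32 are such a pair in S288c. Their signs were the same on 11 of 12 arrays, but their log2 ratios differed by a median of 0.60 in size and by at least 1 on 3 arrays, with a largest difference of 1.49. MPH2 and MPH3 are another pair. Their signs were the same on 6 of 11 arrays, with a median difference of 0.48 in size and a largest one of 1.16. MAL11 and MAL31, transporters of less similar sequence, differed by a median of 1.25 and had the same sign on 5 of 12 arrays.

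**Figure D4:**
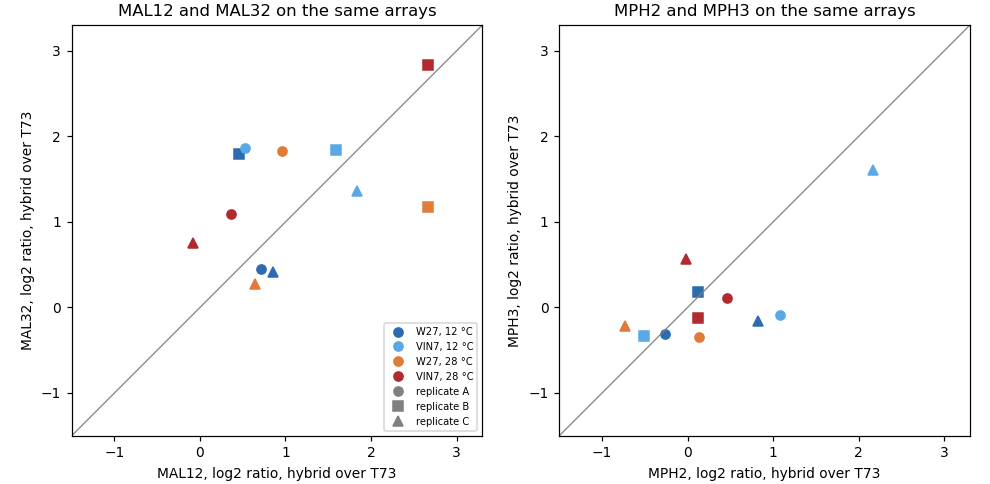
Log2 ratio of hybrid over T73 of MAL32 against MAL12 (left) and of MPH3 against MPH2 (right), each point being 1 array with the group given by colour and the replicate by shape, and the line marking equal values. On 11 of 12 arrays both maltase genes lie on the same side of 0, and the largest distance between them on an array is 1.49.

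Likeness to other genes was described by the Pearson r over the 12 arrays, which share T73 and differ in spread, among 5550 other ORFs with a value on every array. MAL31 was the member most like SUC2 (r = 0.83), in place 6 of all ORFs, and SUC2 was in place 7 for MAL31. With replicate C of VIN7 at 28 °C turned, r was 0.85 and the places were 8 and 14. The near copies MAL12 and MAL32 had r = 0.48, in place 608 for MAL12 and 708 for MAL32. The ORF most like SUC2 was YMR081C (r = 0.87), the one most like MAL31 was YLR205C (r = 0.88), and the one most like MAL11 was YJR038C (r = 0.85). For the maltase genes these were YPL145C (MAL12, r = 0.88) and YIL092W (MAL32, r = 0.90), for IMA1 YLR187W (r = 0.89) and for MPH3 YKL182W (r = 0.84). The activators had the highest r of these, with YJR099W for MAL13 (r = 0.93) and YDR003W for MAL33 (r = 0.94). With replicate C turned, the most like ORF stayed the same for MAL11 and MAL13 and was another for the other 7 members ranked. The highest r was then that of MAL12 (0.95), not of an activator. For MAL33, YDR003W then had r = 0.79 and was in place 107.

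Other genes of sugar use were counted from lists set by systematic name from general knowledge, since the files do not pair identifiers with gene names. None of their ORFs passed with limma after adjustment in any group. Of 6 ORFs for other isomaltases and for proteins like the MAL activators, 0 were 2-fold higher in W27 at either temperature and 1 in VIN7 at each, and none was lower, beside the shares of all ORFs given above (7.76% to 13.9% higher, 5.48% to 11.9% lower). Their median in VIN7 was 0.72 at 12 °C and -0.25 at 28 °C, and 28 minus 12 °C had a median of -1.02, beside 0.17 for all ORFs. With replicate C turned, none was 2-fold higher in VIN7 at 28 °C, and their median there was -0.12, beside 0.04 for all ORFs. The median of 28 minus 12 °C was then -0.86, beside -0.02. In W27 the median was 0.59 at 12 °C and 0.02 at 28 °C. Of 24 ORFs for glucose repression and sensing, some of which control SUC2 and the MAL genes, 3 were 2-fold higher and 3 lower in VIN7 at 12 °C. The other groups had no more than 3 in either direction, beside the same shares of all ORFs. The medians lay between -0.17 and 0.13. With replicate C turned, VIN7 at 28 °C had 1 higher and 1 lower and a median of 0.15. Of 8 ORFs for galactose use, another sugar pathway under glucose repression, 3 were 2-fold higher and 1 lower in W27 at 12 °C (against 10.6% and 11.2% of all ORFs). There was 1 higher in W27 at 28 °C (against 7.76%), 1 in VIN7 at 12 °C (against 13.9%) and 2 in VIN7 at 28 °C (against 11.3%). With replicate C turned, 0 were higher and 1 lower in VIN7 at 28 °C (against 7.12% and 5.92%).

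The surroundings of the members on the chromosomes were read from the 29 ORFs within 3 systematic numbers of a member on the same arm. In W27 at 12 °C, 7 of these were at least 2-fold higher and 3 lower, against 10.6% and 11.2% of all ORFs. W27 at 28 °C had 7 higher and 0 lower (against 7.76% and 6.08%), and VIN7 at 12 °C had 4 higher and 5 lower (against 13.9% and 11.9%). In VIN7 at 28 °C there were 8 higher and 2 lower (against 11.3% and 5.48%), or 3 and 2 with replicate C turned. Their medians were 0.02, 0.15, -0.20 and 0.46 in these groups, beside -0.06, 0.08, 0.003 and 0.10 for all ORFs. None passed after adjustment (limma). Of the neighbours beyond 2-fold in the median with the same sign on all 3 arrays of a group, the highest mean was that of YBR300C, beside MAL32, with 2.35 ± 1.72 (SD, n = 3) in VIN7 at 28 °C (replicate C 2.03, or -2.03 turned) and 1.96 ± 1.29 (SD, n = 3) in W27 at 28 °C. Next came YJR162C, near MPH3, with 2.31 ± 0.84 (SD, n = 3) in W27 at 12 °C. The lowest of them were YJR161C, beside MPH3, with -1.68 ± 0.95 (SD, n = 3) in W27 at 12 °C, and YIL160C, near SUC2, with -1.62 ± 0.41 (SD, n = 3) in VIN7 at 12 °C. One neighbour of MAL13 and IMA1 had a lower mean, -4.89 in VIN7 at 28 °C, but with values of -16.7, -0.27 and 2.28 its arrays had different signs. Neighbours of one member, such as YJR161C and YJR162C, thus lay on opposite sides of T73 in the same group.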

How the data were processed

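Expression was compared on 12 arrays with 2 colours. Per the methods, a global background was taken off the GenePix signals, Acuity was used for normalization, not-found spots were dropped, and print tip artifacts were handled manually. What the authors deposited is a table of log2 ratios with a column for each array, holding 6178 ORFs and 2 controls, and the controls were left out. Without spot intensities, signal over background is unknown, and precision is limited by the number of arrays. Signs were turned to hybrid over T73. The W27 arrays labelled 28 °C in their titles have 12 °C in their source description, and the titles were used.

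A single limma 3.58.1 model of the 4 group means, without a replicate block, was fitted to all ORFs (R 4.3.3, lmFit, then eBayes). ORFs with at least 2 values in each group compared were tested, and a Benjamini-Hochberg adjusted p under 0.05 over all of them was a call. The fit was tested on simulated data. Deviations from the group means of arrays with the same letter correlated above 0.1 for every letter only between VIN7 at 12 and 28 °C (r = 0.31, 0.22 and 0.57), and not there either with replicate C at 28 °C turned (-0.21, 0.048 and -0.40), and no label ties a letter to a fermentation. Counts were made in Python 3.11.15 with numpy 2.4.6 and pandas 2.3.3, and figures with matplotlib 3.10.9.

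The members, lists and tests were chosen with earlier results of these data known. The genes named are the 10 members, the most like ORF of each and, as identifiers were not paired with names, at most 2 neighbouring ORFs that were higher and 2 that were lower, by the size of their means. The 24, 8 and 6 ORFs of the lists on glucose repression, galactose use and isomaltases are given as counts for the same reason. Alternatives were turning the sign of 1 array, recentring, scaling, limiting extreme values to the quantiles at 0.1% and 99.9%, a replicate block, fitting only the arrays compared, a robust prior, leaving out each array and, for the 2-fold rule, the mean, a value on all 3 arrays and thresholds of 1.5-fold and 4-fold. The mean of the 4 groups, the fit of VIN7 alone with a block and the counts and ranks with replicate C turned were added after the values were seen.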

Additional observations from a re-analysis of the deposited data

Results flagged for a closer look

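The log2 ratio of MAL31 was negative on all 3 arrays of Lalvin W27 at 12 °C and positive on all 3 of VIN7 at 12 °C, with a difference of 1.88 (adjusted p = 1.00, limma). MAL11 at 28 °C was positive on all 3 arrays of W27 and negative on all 3 of VIN7, with a difference of -1.36 (adjusted p = 0.547, limma). The direction of replicate C of VIN7 at 28 °C is not settled, and turned it was 0.27 for MAL11, so that the arrays of VIN7 no longer shared a sign. Both were picked out by the signs of their arrays, and neither difference passed the test.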

How the results depend on the processing

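The number of arrays, 3 for each group, and the unknown signal over background limit all values. Of 554 values of single genes under alternatives, 529 kept their direction and their side of the threshold, 16 changed sign, none was newly called and 9 lost a call (MAL12 in the mean of the 4 groups, each time without 1 array), so that 1 or 2 members passed there when 1 array was left out. Part of this was fixed in advance. A robust prior or a fit of only the arrays compared leaves a mean or difference as it was. So does a replicate block for a member with a value on every array. Limiting extreme values changed no member, as each lay between the percentiles 5.89 and 99.8 on every array. Turning replicate C of VIN7 at 28 °C leaves the means of the other groups as they were. No member was called in a group or difference, so no call could be lost there. In VIN7 at 28 °C, MAL33 was -0.70, IMA1 0.036 and MPH3 -0.19 once replicate C had its sign turned. Recentring gave 0.030 for MAL11 in W27 at 12 °C, and scaling gave -0.10 for MAL13 there. The cause was not tested.

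Signs also changed when 1 array was left out. In W27 at 12 °C, MAL11 ranged from -0.45 to 0.35, MAL13 from -0.34 to 0.31, MPH2 from -0.071 to 0.47 and MPH3 from -0.24 to 0.0095. In VIN7 at 12 °C the ranges were -0.67 to 0.092 for MAL11, -0.34 to 0.88 for MAL13, -0.28 to 1.16 for MAL33 and -0.21 to 0.76 for MPH3. At 28 °C they were -0.071 to 0.98 for MAL13 in W27, -0.20 to 0.56 for MAL13 in VIN7 and -0.008 to 0.34 for MPH3 in VIN7.

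Counts of members 2-fold higher ranged, with 1 array left out, from 0 to 2 in W27 at 12 °C, 1 to 2 in W27 at 28 °C, 2 to 7 in VIN7 at 12 °C and 2 to 5 in VIN7 at 28 °C. At 1.5-fold, 2 members were higher and 1 lower in W27 at 12 °C and 3 were higher in W27 at 28 °C. At 4-fold, 0 were higher in W27 at 28 °C, VIN7 at 12 °C and VIN7 at 28 °C. In W27 at 28 °C, recentring gave 0 and the mean in place of the median 2. Scaling gave 1 in VIN7 at either temperature, and so did a turned sign of replicate C at 28 °C. Apart from the turned sign, shares of all ORFs were not taken under these alternatives. The counts there cannot be set against a share of their own. With the replicate block, 0 members were called in any group or difference, and MAL12 and MAL32 in the mean of the 4 groups, as without it. Deviations of arrays with the same letter correlated between -0.44 and 0.57, over 0.1 in 6 of 18 pairs, and in all 3 only between the temperatures in VIN7. For that comparison a fit of the VIN7 arrays alone with the replicate block, added after the data were seen, gave -1.22 for IMA1 (adjusted p = 0.153, limma) and called 0 of 6158 ORFs (1 member, IMA1, at an unadjusted p under 0.05).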
